A study of Mus musculus with 12 samples.

Results

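The genes of the mitotic and cell cycle machinery were followed across the 12 arrays. They were chosen by symbol: the centromere proteins, kinesins, mitotic checkpoint and Polo kinases, NIMA kinases, cyclins A, B, D and E, cyclin-dependent kinases (CDKs) and their Cks subunits, numbered Cdc genes other than Cdc42, subunits of the anaphase-promoting complex, SMC and condensin genes, type II topoisomerases and E2F factors. The rule itself uses symbols and no measured value. Of the 9984 genes with a value, 87 met it. They were placed by symbol in 12 roles. Of the 87, 37 fall in 8 roles named after the division machinery. The other 50 are alike in name and mostly work elsewhere, such as transport kinesins and transcriptional CDKs. The split is rough: the 37 include Cenpj, a centriole gene, and Smc5, a chromosome repair gene, and the 50 include Cdc14b. Counts and medians of the roles describe these symbol groups. Of 35 genes listed as the best-known cycle genes, 9 have a value here (Top2a, Ccne1, Ccne2, Cdk2, Cdk4, Plk1, Cdc25a, E2f1 and E2f3). Others, such as Mki67, Cdk1 and Aurkb, were not analysed here.

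The study compared stem and progenitor cells from the bone marrow of male C57Bl/6 mice that lacked 1 or both copies of Erg, which encodes an ETS transcription factor needed by HSCs, with their controls, on 3 arrays in each of 4 groups. Multipotent progenitors (MPPs) came from Erg -/- mice, in which Mx1-Cre, a Cre switched on by interferon, had removed the floxed exon 11 of Erg, and from Erg fl/fl mice without Cre. The mice of both MPP groups were given pIpC, an RNA mimic that induces interferon, 5 times, and sorting followed 2 weeks after the first dose. Hematopoietic stem cells (HSCs), gated as Lineage-, Sca-1+, c-Kit+, CD150+ and CD48-, came from Erg +/- mice, made by crossing the floxed line with a general Cre deleter, and from Erg +/+ mice. Neither HSC group is labelled as given pIpC. The titles call the Erg +/- samples knock-outs, and the genotype field was followed. For MPPs the sorting field gives CD150- cells, whereas the source field repeats the HSC gate. Within the MPPs, Cre and genotype cannot be told apart. Between MPPs and HSCs, population, pIpC and the floxed allele cannot be told apart. The level of Erg itself was not analysed here, which leaves the genotypes as labelled, without a check.

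Cells enter and pass through division by switching CDKs on and off. E2F factors and cyclin E with Cdk2 start DNA replication, Cdc25 phosphatases and Polo-like kinase 1 bring on mitosis, centromere proteins build the kinetochores that hold chromosomes to the spindle, and the anaphase-promoting complex then destroys cyclins so that the cell can leave mitosis. Most adult HSCs rest outside the cycle, and multipotent progenitors divide more often. Many mitotic genes are transcribed only in dividing cells, so in a sorted population a change in the share of dividing cells and a change in RNA per cell cannot be told apart.

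The sorted populations differed in the markers measured, which were listed with earlier results of these data known. Their separation is therefore a description and no check of the sorting. Of 13 HSC-associated genes 4 have a value (Mmrn1, Tgm2, Nupr1 and Ifitm1), and the array means of these 4 ran from 6.34 to 6.57 log2 units in Erg -/- MPPs and 6.94 to 7.17 in Erg fl/fl MPPs, against 9.81 to 9.96 in Erg +/- HSCs and 9.60 to 9.70 in Erg +/+ HSCs. Flt3, the receptor that marks MPPs, was the 1 of 6 MPP-associated genes with a value, and it lay between 8.65 and 9.65 log2 units in the 6 MPP arrays and between 4.57 and 6.38 in the 6 HSC arrays. Between replicates, r lay between 0.9528 and 0.9743 over all genes and between 0.9191 and 0.9816 over the 87 genes, as a description. Erg fl/fl MPP replicate 1 stood apart among the MPP arrays: the interquartile range of its probe sets was 2.84 log2 units, against 2.53 and 2.58 in the other Erg fl/fl MPP arrays, and limma gave it the lowest array weight of the 12, at 0.667. Medians of the gene groups that involve it are given with and without it where they moved by over 1.5 times.

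Called genes were found between the control populations. Cks2, which encodes a small subunit of CDK complexes needed for cell division, and Plk1, which encodes the Polo-like kinase of mitotic entry and spindle assembly, were higher in Erg fl/fl MPPs than in Erg +/+ HSCs. Cdc14b, which encodes a phosphatase that counteracts CDK phosphorylation, was lower. These were the 3 genes of 87 (2 higher, 1 lower) that passed the threshold of 0.05 on the adjusted p, where 1.28% of all genes passed (0.651% higher, 0.631% lower). The other 84 did not pass. Markers of other cells moved in the same comparison. All 6 B lineage markers measured were higher, 3 of them called, with array means of 6.50 to 7.0 log2 units in Erg fl/fl MPPs and 4.91 to 5.52 in Erg +/+ HSCs. All 3 mast cell and basophil markers were higher, 1 called (5.56 to 6.71 in Erg fl/fl MPPs, 4.32 to 4.38 in Erg +/+ HSCs), and all 3 granulocyte-macrophage markers, 0 called (7.01 to 7.53 and 5.53 to 6.37 in the same order of groups). Of the 5 endothelial and stromal markers 4 were lower, 1 called (5.93 to 6.27 and 6.43 to 7.15). All 10 erythroid markers were higher, 0 called (5.97 to 6.34 and 5.62 to 5.96). Their part in the values of the cycle genes was not tested.

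Cks2 measured 9.65, 9.38 and 9.16 log2 units in Erg fl/fl MPPs, against 7.75, 6.90 and 7.82 in Erg +/+ HSCs. All 3 Erg fl/fl MPP arrays lay above all 3 Erg +/+ HSC arrays. The means were 9.40 ± 0.245 in Erg fl/fl MPPs and 7.49 ± 0.51 in Erg +/+ HSCs (SD, n = 3 each), a 3.75-fold difference (log2 difference 1.91, SE 0.243; limma, adjusted p = 0.00243). A second probe set of Cks2 gave a log2 difference of 1.91 as well. The probe sets numbered next to these map mostly to other chromosomes than chromosome 13, where RefSeq places Cks2: 18 of 19 to chromosome 15 for the one used and 17 of 18 to chromosome 1 for the second. The signal may therefore include near-identical copies elsewhere, which was not tested, and the Cks2 values are uncertain to that extent.

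Plk1 measured 7.11, 6.64 and 7.47 log2 units in Erg fl/fl MPPs, against 5.41, 4.79 and 4.31 in Erg +/+ HSCs, with no overlap. The means were 7.07 ± 0.415 in Erg fl/fl MPPs and 4.83 ± 0.552 in Erg +/+ HSCs (SD, n = 3 each), a 4.72-fold difference (log2 difference 2.24, SE 0.467; limma, adjusted p = 0.0375). The mean in Erg +/+ HSCs lies at the 30.3rd percentile of all genes in that group. Without a detection call, the Plk1 level there was not shown to be above background, and the fold is uncertain. The call ended in 5 of the 6 fits without 1 of these arrays, all but the fit without Erg +/+ HSC replicate 1 (log2 differences from 1.97 to 2.53, adjusted p from 0.0429 to 0.122).

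Cdc14b measured 4.21, 4.42 and 4.30 log2 units in Erg fl/fl MPPs, against 6.36, 5.83 and 5.55 in Erg +/+ HSCs. The MPP arrays lay close together and all below the HSC arrays. The means were 4.31 ± 0.104 in Erg fl/fl MPPs and 5.91 ± 0.413 in Erg +/+ HSCs (SD, n = 3 each), a 3.04-fold lower level (log2 difference -1.60, SE 0.252; limma, adjusted p = 0.0108). The files give no detection call, and the mean in Erg fl/fl MPPs lies at the 16.9th percentile of all genes in that group, so the Cdc14b level there was not shown to be above background and the fold is uncertain. It stayed called with each array left out (adjusted p from 0.0114 to 0.0465), but not when the first replicates of Erg fl/fl MPPs and Erg +/+ HSCs were both left out (log2 difference -1.33, adjusted p = 0.0733).

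The promoters of these 3 genes are shown because they are the ones called between the control populations. The Cks2 window is that of the RefSeq gene, which may not be the only source of the signal measured. Capitals mark CCAAT on either strand (CCAAT or ATTGG), the letters bound by NF-Y at many mitotic promoters, and TTTGAA on either strand (TTTGAA or TTCAAA), the core of the cell cycle genes homology region through which resting cells keep mitotic genes off. Each sequence is the RefSeq window from 250 bases before to 50 bases after a gene start in GRCm38.p6, written along the gene's own strand: chr13:51644982-51645281 on the plus strand for Cks2, chr7:122159185-122159484 on the plus strand for Plk1 and chr13:64274939-64275238 on the minus strand for Cdc14b, whose other listed start has neither motif.
Cks2: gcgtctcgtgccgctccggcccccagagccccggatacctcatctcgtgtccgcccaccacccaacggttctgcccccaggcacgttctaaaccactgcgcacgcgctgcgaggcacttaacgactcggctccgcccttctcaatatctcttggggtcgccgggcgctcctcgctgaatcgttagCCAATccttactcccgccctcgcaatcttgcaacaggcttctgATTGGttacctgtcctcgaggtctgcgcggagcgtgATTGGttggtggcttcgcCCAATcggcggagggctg
Plk1: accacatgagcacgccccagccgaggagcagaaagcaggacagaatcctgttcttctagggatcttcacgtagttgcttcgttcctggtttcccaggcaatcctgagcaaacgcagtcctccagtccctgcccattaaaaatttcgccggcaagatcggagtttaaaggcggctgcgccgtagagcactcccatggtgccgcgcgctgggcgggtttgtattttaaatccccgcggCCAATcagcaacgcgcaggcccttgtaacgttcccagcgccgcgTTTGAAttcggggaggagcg
Cdc14b: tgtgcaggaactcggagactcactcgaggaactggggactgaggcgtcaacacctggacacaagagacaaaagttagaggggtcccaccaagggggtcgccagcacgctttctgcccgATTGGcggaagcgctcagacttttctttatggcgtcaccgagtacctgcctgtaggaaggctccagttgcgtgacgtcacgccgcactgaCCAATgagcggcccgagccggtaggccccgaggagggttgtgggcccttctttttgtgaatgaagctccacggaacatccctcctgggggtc
The Cks2 window holds 4 CCAAT matches, the Cdc14b window 2 and the Plk1 window 1, and TTTGAA occurs once, in Plk1. A match describes the letters only.

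Over promoters as a whole, CCAAT occurred in 19 of the 40 windows of genes in the 8 cell cycle roles (47.5%), in 12 of 48 windows of the genes alike in name (25%), and in 37.8% of the 9504 windows of all genes measured. TTTGAA occurred in 22.5% of the windows of the cell cycle roles, 25% of those of the genes alike in name and 13.8% of those of all genes measured. The pair occurred together in 7 of the 40 windows (17.5%), against 2 of 48 (4.17%) and 5.32%. E2F-type letters (TTTCGCGC, TTTGGCGC, TTTCCCGC or TTTGCCGC, either strand) stood in 4 of the 40 windows (10%), those of Cdc25a, Cdk2, Cenpl and E2f3, and in 0 of 48, against 3.1%. Among all 32851 windows of the RefSeq table the shares were 37.4% for CCAAT, 17.9% for TTTGAA, 6.95% for the pair and 2.26% for E2F-type letters. Of the 87 genes, 76 have a window in that table, and some have several. The shares were not tested.

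**Figure D1:**
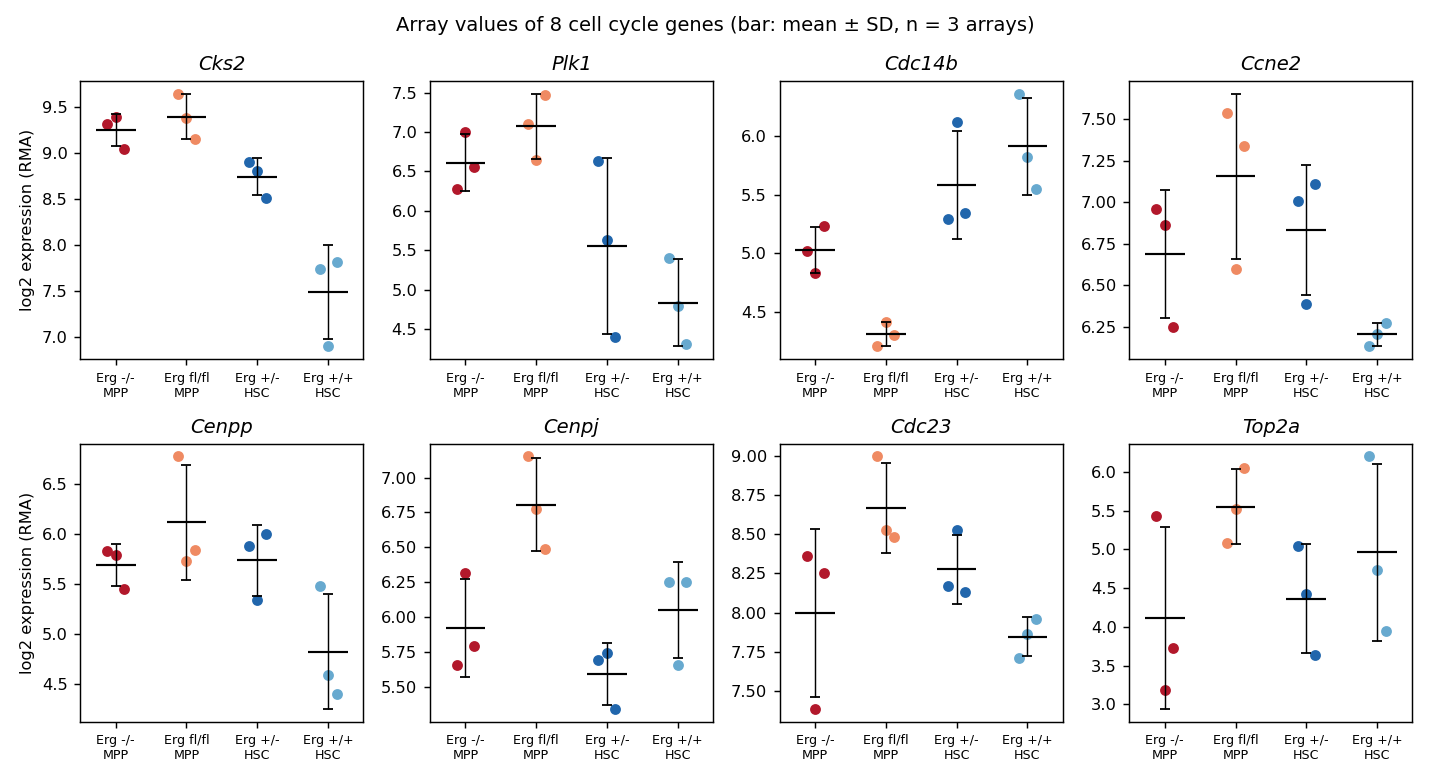
Log2 expression (RMA) of 8 genes on every array, with points for the 3 arrays of Erg -/- MPPs, Erg fl/fl MPPs, Erg +/- HSCs and Erg +/+ HSCs, and bars for mean ± SD. Each panel has its own vertical range, which does not start at 0. Cks2 and Plk1 lie lowest in Erg +/+ HSCs, at means of 7.49 and 4.83, and Cdc14b lies lowest in Erg fl/fl MPPs, at 4.31.

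The core cyclin, CDK and Cks genes, the E2F factors and Cdc25a were mixed between the control populations, and of these 1 gene, Cks2, was called. S phase genes outside the symbol rule are given further below. Ccne2, cyclin E2, measured 7.54, 6.60 and 7.34 log2 units in Erg fl/fl MPPs, against 6.13, 6.20 and 6.28 in Erg +/+ HSCs, with no overlap (log2 difference 0.95, SE 0.276; limma, adjusted p = 0.1). Of the 7 core cyclin, CDK and Cks genes 5 had a positive difference, with a median of 0.36 against 0.12 over all genes. Cdk2, the partner of cyclin E, averaged 7.85 ± 0.505 in Erg fl/fl MPPs and 8.28 ± 0.179 in Erg +/+ HSCs, and Cdk4, the partner of cyclin D, 9.78 ± 0.297 and 10.02 ± 0.214 in the same order of groups (SD, n = 3 each), both lower on average in the MPPs and within the spread of the arrays. E2f3, an activator of S phase genes, stood at a log2 difference of 0.64 (SE 0.264, adjusted p = 0.188; 0.38 without Erg +/+ HSC replicate 2), but its second probe set stood at -0.35, so its direction is unsettled. E2f1 averaged 6.65 ± 0.335 in Erg fl/fl MPPs and 6.41 ± 0.114 in Erg +/+ HSCs, and the phosphatase gene Cdc25a 6.96 ± 0.316 in Erg fl/fl MPPs and 6.91 ± 0.736 in Erg +/+ HSCs (SD, n = 3 each), both within the spread of the arrays.

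Of the 9 centromere protein genes 7 had a positive difference between the control populations (median 0.42, and 0.23 without Erg fl/fl MPP replicate 1) and 0 were called. Cenpp, a subunit of the inner kinetochore, measured 6.78, 5.73 and 5.84 log2 units in Erg fl/fl MPPs, against 5.48, 4.59 and 4.40 in Erg +/+ HSCs. Its mean in Erg +/+ HSCs, 4.82, was as low as that of Plk1 there and likewise not shown to be above background. The arrays did not overlap, and the log2 difference of 1.3 (SE 0.327) did not pass (limma, adjusted p = 0.0737). It passed without Erg +/+ HSC replicate 1 (1.62, adjusted p = 0.0375). Cenpj, which despite its name builds centrioles, stood at 0.75 (SE 0.244, adjusted p = 0.122). Kif20a, the kinesin of the central spindle in cytokinesis, was the 1 gene placed in the mitotic kinesin role. It stood at 0.57 (SE 0.256, adjusted p = 0.214), and at 0.28 without Erg +/+ HSC replicate 3. The remaining kinesins, Kif2a and Kif2b among them, were placed with the genes alike in name, though some of these also act in mitosis.

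The anaphase-promoting complex did not move as a unit. Of its 7 genes 3 had a positive and 4 a negative difference between Erg fl/fl MPPs and Erg +/+ HSCs. The subunit genes Cdc23 and Cdc27 stood at log2 differences of 0.82 (SE 0.251) and 0.64 (SE 0.235), and the subunit gene Anapc7 at -0.87 (SE 0.346), with adjusted p = 0.107, 0.15 and 0.178 by limma. Nor did the checkpoint and Polo kinase genes, of which Plk1 was the 1 of 6 called, with a median of 0.01. Among the chromosome structure genes Ncaph2, a condensin II subunit, stood at -0.74 (SE 0.256, adjusted p = 0.137), and at -0.42 without Erg +/+ HSC replicate 1.

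Top2a, the topoisomerase that untangles chromosomes in dividing cells, varied widely within its groups. It measured 5.44, 3.18 and 3.73 log2 units in Erg -/- MPPs, 5.08, 5.52 and 6.05 in Erg fl/fl MPPs, 5.04, 4.43 and 3.63 in Erg +/- HSCs, and 6.20, 4.74 and 3.95 in Erg +/+ HSCs. The SD reached 1.18 in Erg -/- MPPs and 1.14 in Erg +/+ HSCs, and the groups of each comparison made here overlapped. Without a detection call, the low Top2a values were not shown to be above background. Over all 4 groups, 7 to 17 of the 87 genes had an SD over 0.5 log2 units within a group. With 3 arrays a group, this spread limits the precision of each of their values.

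Over the 87 genes as a whole, the median log2 difference between the control populations was 0.12, the same as over all genes (0.07 and 0.12 without Erg fl/fl MPP replicate 1), and 51 of 87 were positive (58.6%, against 62.4% of all genes). Without overlap 20 genes were higher and 7 lower, where the shares over all genes were 18.5% higher and 8.54% lower (27.0% in all). At an unadjusted p under 0.05 there were 17 higher and 5 lower, where all genes gave 14.4% and 7.91% (22.3% in all). Whether these shares differ from those of all genes was not tested. In the 37 genes of the cell cycle roles the median was 0.22, with 24 positive. It was 0.12, as over all genes, without Erg fl/fl MPP replicate 1 and 0.11 without Erg +/+ HSC replicate 3, so its distance from the median of all genes rests on either array. In the 50 genes alike in name, which include Cdc14b, it was 0.10, with 27 positive. The largest positive one among these was Cdk8, a kinase of the Mediator complex, at 9.70, 9.28 and 9.30 log2 units in Erg fl/fl MPPs, against 8.36, 7.12 and 8.40 in Erg +/+ HSCs. It had no overlap and did not pass (log2 difference 1.47, SE 0.352; limma, adjusted p = 0.0625).

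**Figure D2:**
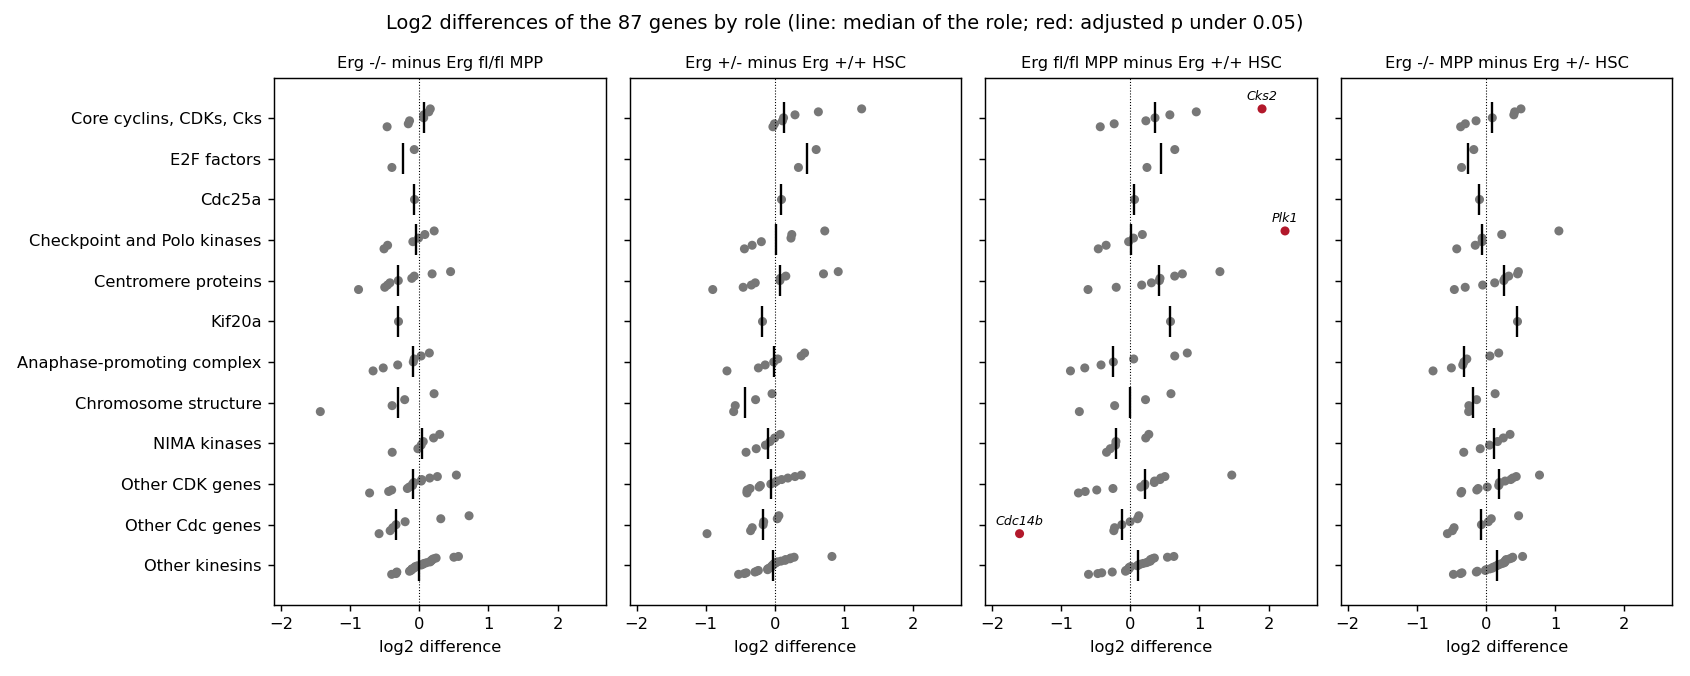
Log2 difference of each of the 87 genes (horizontal axis) by role (rows), in 4 comparisons (panels), with a vertical line at the median of each role and red points for adjusted p under 0.05. The 3 red points, Cks2, Plk1 and Cdc14b, all lie in the comparison of Erg fl/fl MPPs with Erg +/+ HSCs.

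The same populations can be compared in the Erg-deficient arrays, which share no array with the controls. These groups also differ in Erg allele dose and in Cre, so the comparison is not a plain repeat of the control one. Erg -/- MPPs and Erg +/- HSCs gave no called gene among the 87: 0 of 87 passed, where 0.120% of all genes did (0.0100% higher, 0.110% lower). By limma 7 had an unadjusted p under 0.05 (4 higher, 3 lower), where all genes gave 1.79% higher and 2.05% lower (3.85% in all). Without overlap 10 were higher and 5 lower, where all genes gave 14.7% and 5.47% (20.1% in all), and 50 of 87 differences were positive (57.5%, against 59.9% of all genes). Cks2 measured 9.32, 9.39 and 9.05 log2 units in Erg -/- MPPs, against 8.91, 8.81 and 8.52 in Erg +/- HSCs, again without overlap (log2 difference 0.51, SE 0.243; limma, adjusted p = 0.446). Cdc14b measured 5.02, 4.84 and 5.23 in Erg -/- MPPs, against 5.29, 6.12 and 5.35 in Erg +/- HSCs, again lower in each MPP array (-0.56, SE 0.252, adjusted p = 0.446). Plk1 measured 6.28, 7.0 and 6.55 in Erg -/- MPPs, against 6.64, 5.63 and 4.40 in Erg +/- HSCs, and here the groups overlapped (1.06, SE 0.467, adjusted p = 0.446). The Plk1 difference was 0.48 without Erg +/- HSC replicate 3 and 1.6 without its replicate 1.

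MPP arrays lay above HSC arrays without overlap, in the controls and in the Erg-deficient arrays alike, for 5 genes (Cks2, Cdk8, Cdk5r2, Kif1a and Kif26a, the list being named after its values were seen), which is 5 of 87 where all genes gave 4.25%. They lay below in both for 1, Cdc14b, where all genes gave 1.24%. The sign was the same in both for 60 of 87, against 74.9% of all genes. Across the 87 genes the 2 sets of differences correlated at Pearson r = 0.571, close to 0.578 across all genes. Spearman rho was lower, at 0.482 against 0.574. Genes are not independent replicates, and both sets carry the same pIpC and gate differences. In the cell cycle roles the median was -0.06 in the Erg-deficient arrays (16 of 37 positive) and 0.22 in the controls (24 of 37 positive; 0.11 to 0.25 with 1 array left out). Without Erg +/- HSC replicate 1 the Erg-deficient median was 0.10, with 21 of 37 positive, so its sign rests on that array. In the genes alike in name it was 0.14 there, with 34 of 50 positive.

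In HSCs, loss of 1 Erg allele gave no called change among these genes: 0 of 87 passed, where 0.0200% of all genes did. Limma gave 9 genes an unadjusted p under 0.05, 7 higher and 2 lower, where all genes gave 2.73% higher and 3.59% lower (6.32% in all). The smallest p belonged to Cks2, at 8.91, 8.81 and 8.52 log2 units in Erg +/- HSCs, against 7.75, 6.90 and 7.82 in Erg +/+ HSCs. All 3 Erg +/- arrays lay above the Erg +/+ arrays, by 2.39-fold on average (log2 difference 1.26, SE 0.243), and the adjusted p was 0.143 by limma (0.116 to 0.343 with 1 of these arrays left out). The same Erg +/+ HSC arrays entered the comparison of the control populations, so differences seen in both comparisons share a baseline.

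Among the genes of the cell cycle roles, 19 of 37 had positive differences in Erg +/- HSCs. Besides Cks2, the higher ones with an unadjusted p under 0.05 were Cenpp at 0.92 (SE 0.327), Cenpv at 0.70 (SE 0.321), Ccne2 at 0.63 (SE 0.276) and E2f3 at 0.60 (SE 0.264), with adjusted p of 0.74 to 0.789 by limma. Plk1 stood at 0.72 (SE 0.467, adjusted p = 0.898), from 0.18 to 1.3 with 1 array left out, and its groups overlapped. Cdc23, at 0.43 (SE 0.251, adjusted p = 0.885), was higher without overlap. Ccne2 measured 7.01, 6.39 and 7.11 log2 units in Erg +/- HSCs, above the 6.13, 6.20 and 6.28 of Erg +/+ HSCs. Cenpp measured 5.88, 5.34 and 6.00 in Erg +/- HSCs and 5.48, 4.59 and 4.40 in Erg +/+ HSCs, and the groups overlapped. The second probe set of E2f3 stood at -0.24. Among the genes alike in name, Kif7, a kinesin of Hedgehog signalling in cilia, measured 6.24, 6.05 and 6.85 in Erg +/- HSCs, above 5.39, 5.68 and 5.59 in Erg +/+ HSCs (0.83, SE 0.233, adjusted p = 0.559).

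Among the genes with lower values in Erg +/- HSCs, Smc5, of the SMC5/6 complex of chromosome repair, measured 8.07, 8.34 and 7.82 log2 units in Erg +/- HSCs, against 8.80, 8.79 and 8.35 in Erg +/+ HSCs, with no overlap (-0.57, SE 0.205; limma, adjusted p = 0.74). All 4 chromosome structure genes had negative differences (median -0.43), 0 of them called. Kif21a, a neuronal transport kinesin, stood at -0.53 (SE 0.191, adjusted p = 0.74). Cdc5l, a splicing factor gene, stood at -0.98 (SE 0.488, adjusted p = 0.834), a value that rests on replicate 3: it measured 9.15, 9.93 and 7.60 in Erg +/- HSCs, against 9.60, 10.46 and 9.56 in Erg +/+ HSCs, and the difference without that replicate was -0.34. Its probe set, like that of Cks2, is numbered among probe sets of another chromosome (19 of 19 on chromosome 10, the gene being on 17), so its signal is uncertain.

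Over all 87 genes, 6 were higher and 6 lower in Erg +/- HSCs without overlap, where the shares over all genes were 6.06% and 4.38% (10.4% in all). The median was -0.03, against 0.02 over all genes, with 36 of 87 positive (41.4%, against 53.8%). In the cell cycle roles it was 0.04, with 19 of 37 positive. Markers of other cells moved between these groups: the 10 of 16 erythroid markers measured all had positive differences, 0 of them called, with array means of 6.41 to 6.57 log2 units in Erg +/- HSCs and 5.62 to 5.96 in Erg +/+ HSCs, and the 5 of 12 endothelial and stromal markers measured all had negative ones, 1 of them called, with array means of 5.58 to 5.79 in Erg +/- HSCs and 6.43 to 7.15 in Erg +/+ HSCs. Their part in the values of the cycle genes was not tested.

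In MPPs, loss of both Erg alleles gave no called change either: 0 of 87 passed, where 0.0801% of all genes did. At an unadjusted p under 0.05 there were 9 by limma, 1 higher and 8 lower, where all genes gave 1.21% higher and 3.58% lower (4.79% in all). Without overlap 2 were higher and 10 lower, where all genes gave 4.36% and 6.10% (10.5% in all). The Erg fl/fl MPP arrays also entered the comparison of the control populations, so differences seen in both comparisons share these arrays. The genes lower in Erg -/- MPPs were of several kinds. Cenpj, the centriole gene, measured 5.66, 6.32 and 5.80 log2 units in Erg -/- MPPs, against 7.15, 6.78 and 6.49 in Erg fl/fl MPPs, and had the smallest p (-0.88, SE 0.244; limma, adjusted p = 0.636). Cdk5rap1, which modifies mitochondrial transfer RNAs, measured 5.33, 5.58 and 5.14 in Erg -/- MPPs, against 5.71, 6.05 and 6.44 in Erg fl/fl MPPs (-0.72, SE 0.245, adjusted p = 0.946).

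Cdk19, a second Mediator kinase, measured 9.09, 8.95 and 8.79 log2 units in Erg -/- MPPs, against 9.52, 9.51 and 9.15 in Erg fl/fl MPPs, lower in each array (-0.44, SE 0.158; limma, adjusted p = 0.992). Of the anaphase-promoting complex, Cdc23 stood at -0.67 (SE 0.251) and Anapc10 at -0.52 (SE 0.225), both lower without overlap, with adjusted p = 0.998. The Cdc23 difference was -0.36 without Erg -/- MPP replicate 2, the lowest of the 6 arrays. The centromere gene Cenpq stood at -0.46 (SE 0.209) and Top2a at -1.43 (SE 0.622), with adjusted p = 0.998, and their arrays overlapped. Without Erg -/- MPP replicate 1 the Top2a difference was -2.09, and the low Top2a values in Erg -/- MPPs were not shown to be above background. In the other direction, Cdc14b averaged 5.03 ± 0.199 in Erg -/- MPPs and 4.31 ± 0.104 in Erg fl/fl MPPs (SD, n = 3 each), higher in all 3 arrays (0.72, SE 0.252; limma, adjusted p = 0.977).

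Cks2 and Plk1 did not pass between the MPP groups. Cks2 averaged 9.25 ± 0.178 in Erg -/- MPPs and 9.40 ± 0.245 in Erg fl/fl MPPs, a log2 difference with a 95% interval from -0.67 to 0.39. Plk1 averaged 6.61 ± 0.363 in Erg -/- MPPs and 7.07 ± 0.415 in Erg fl/fl MPPs (SD, n = 3 each), a difference of -0.46 with an interval from -1.47 to 0.55 log2 units, which holds falls as large as those named above as well as no change.

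Over all 87 genes the MPP median was -0.08, against 0.00 over all genes, with 34 of 87 positive (39.1%, against 49.4%). It was -0.03 without Erg fl/fl MPP replicate 1, with 40 of 87 positive. In the cell cycle roles it was -0.11, with 11 of 37 positive, and the centromere genes had 2 of 9 positive (median -0.30; -0.09 with 4 positive without Erg fl/fl MPP replicate 1). The position of the cell cycle roles rests on Erg fl/fl MPP replicate 1. With each gene centred on its mean over the 12 arrays, the median over these 37 genes was 0.03, -0.03 and -0.14 on the Erg -/- MPP arrays and 0.33, 0.03 and 0.12 on the Erg fl/fl MPP arrays. Without that replicate the MPP median of the cell cycle roles was -0.02, with 17 of 37 positive.

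Other lineages' markers also moved between the MPP groups. Array means of the 6 of 11 B lineage markers measured were 5.05 to 5.40 log2 units in Erg -/- MPPs and 6.50 to 7.0 in Erg fl/fl MPPs. Of their differences 1 was positive and 5 negative, 2 of them called lower. Array means of the 3 of 11 granulocyte-macrophage markers were 5.55 to 5.93 and 7.01 to 7.53 in the same order of groups (1 called lower). Of these, Nkg7 (-3.05) and Cst7 (-1.65) were lower, whereas Cebpe (0.26) was higher. The 3 of 7 mast cell and basophil markers, all with negative differences, ran from 4.40 to 4.90 and from 5.56 to 6.71 (1 called lower). The 10 of 16 erythroid markers measured all had positive differences, 0 of them called, with array means of 6.28 to 6.77 in Erg -/- MPPs and 5.97 to 6.34 in Erg fl/fl MPPs. Their part in the values of the cycle genes was not tested.

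**Figure D3:**
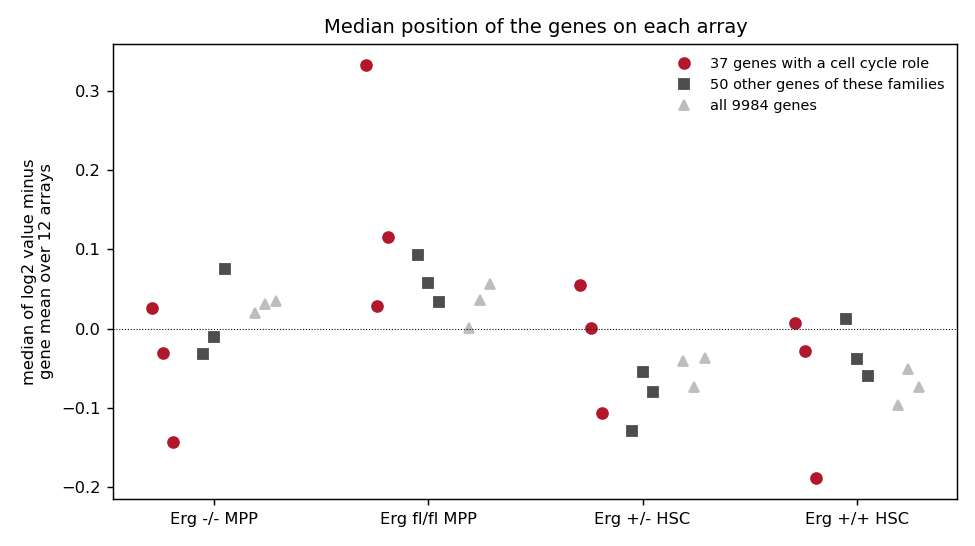
Median, over each set of genes, of the log2 value minus the gene's mean over the 12 arrays (vertical axis), for every array of the 4 groups: red circles for the 37 genes of the cell cycle roles, dark squares for the 50 genes alike in name, grey triangles for all 9984 genes. For the cell cycle roles, 1 array of Erg fl/fl MPPs lies at 0.33, and the other 11 arrays lie between -0.19 and 0.12.

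The effects of Erg loss in the MPPs and in the HSCs, which share no array, were set against each other by an interaction term in limma. No gene of the 87 passed, where 0.0200% of all genes did, and 6 had an unadjusted p under 0.05 (1 higher, 5 lower), where all genes gave 1.43% higher and 2.44% lower (3.88% in all). The 5 lower ones were all in cell cycle roles: Cks2 at -1.40 (SE 0.344, adjusted p = 0.617), Cenpp at -1.34, Cdc23 at -1.10, Ccne2 at -1.10 and E2f3 at -1.0, the last 4 with an adjusted p of 1. With the probe sets used, each of these had a positive difference in Erg +/- HSCs and a negative one in Erg -/- MPPs (-0.14 for Cks2). The interaction is the MPP effect minus the HSC effect, so these signs follow in part from choosing low values. None of these differences was called on its own. The second probe set of E2f3 stood at -0.24 in HSCs and -0.21 in the interaction, and that of Cks2 at 1.04 and -1.45. Cdc14b was the 1 higher, at 1.05 (SE 0.357). In the cell cycle roles 9 of 37 interaction values were positive (24.3%, median -0.15), against 46.1% of all genes. The median was -0.25 without Erg fl/fl MPP replicate 2 and -0.11, with 14 of 37 positive, without its replicate 1. These 2 effects also differ in allele dose, population, pIpC and Cre.

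Cdc23, a subunit of the anaphase-promoting complex, moved in opposite directions without overlap in both. It measured 8.36, 7.38 and 8.25 log2 units in Erg -/- MPPs, against 9.0, 8.53 and 8.48 in Erg fl/fl MPPs. It measured 8.17, 8.53 and 8.13 in Erg +/- HSCs, against 7.71, 7.86 and 7.96 in Erg +/+ HSCs. It was the 1 gene of the 87 that was higher in Erg +/- HSCs and lower in Erg -/- MPPs in this way, where 0.220% of all genes were, and 0 genes were apart the other way, where 0.0901% of all genes were. The 2 effects correlated over the 87 genes at Pearson r = 0.153 and Spearman rho = 0.177, against 0.135 and 0.133 across all genes.

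**Figure D4:**
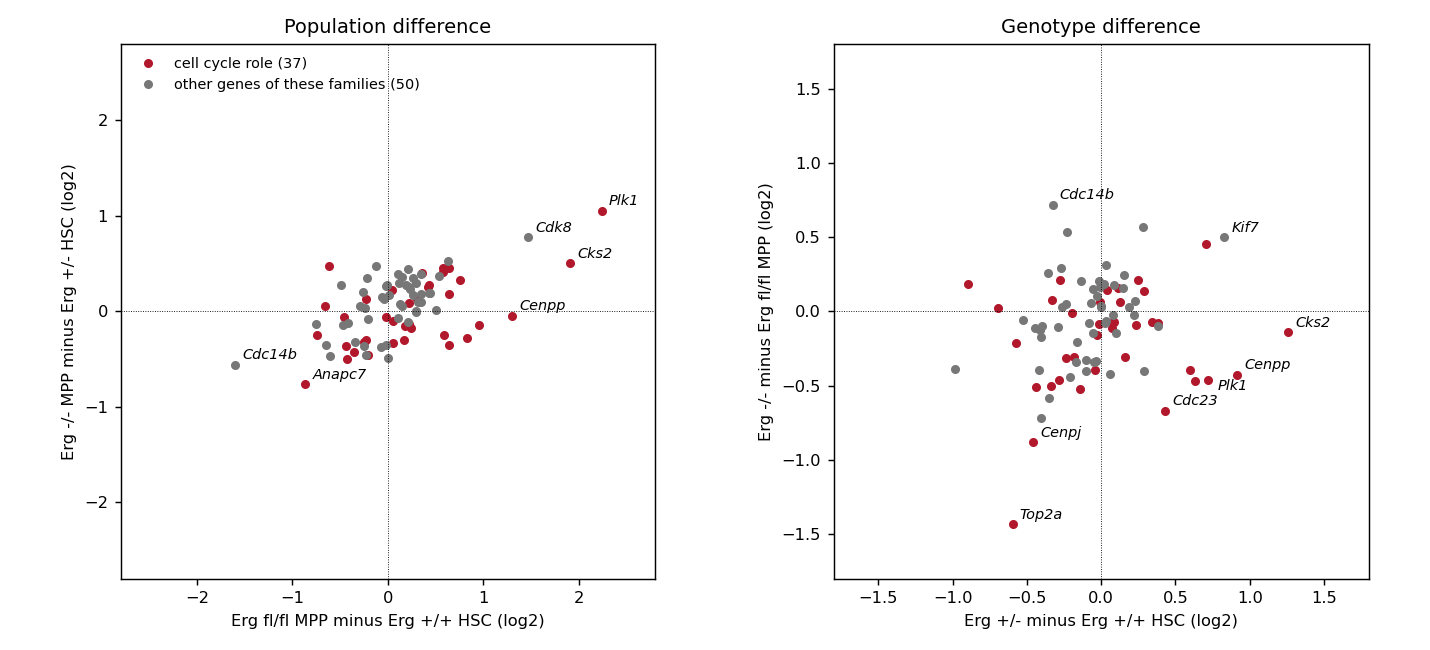
Left, each gene's log2 difference between the control populations (horizontal) and between the Erg-deficient populations (vertical). Right, its difference in HSCs (horizontal) and in MPPs (vertical). Red points are the 37 genes of the cell cycle roles, grey points the 50 alike in name. On the left Plk1, Cks2 and Cdk8 lie far out in the upper right and Cdc14b in the lower left. On the right Cks2 lies at 1.26 in HSCs and -0.14 in MPPs.

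Ordered over the 4 groups, the cell cycle roles were most often highest in Erg fl/fl MPPs. Of the 37 genes 19 (51.4%) had their highest group mean there, 2 (5.41%) in Erg -/- MPPs, 7 (18.9%) in Erg +/- HSCs and 9 (24.3%) in Erg +/+ HSCs, where all genes gave 29.8%, 31.1%, 15.5% and 23.6% in the same order of groups. Without Erg fl/fl MPP replicate 1 the counts were 13, 5, 9 and 10, with 35.1% in Erg fl/fl MPPs, where all genes gave 34.3%, so the position of Erg fl/fl MPPs rests on that array. The 50 genes alike in name were highest in Erg -/- MPPs for 17 and in Erg fl/fl MPPs for 17. For Cks2 the order was Erg fl/fl MPPs at 9.40, Erg -/- MPPs at 9.25, Erg +/- HSCs at 8.75 and Erg +/+ HSCs at 7.49. The MPP groups, next to each other in that order, overlapped. Every other neighbouring pair was apart.

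Genes of the same pathways outside the symbol rule were read in the same comparisons. Between the control populations 0.651% of all genes were called higher and 0.631% lower, with a median of 0.12. Of 39 S phase genes 14 have a value, and 3 were called higher in Erg fl/fl MPPs than in Erg +/+ HSCs and 0 lower (median 0.29, 10 positive): the replication factor gene Gins2 at 1.47, the ubiquitin ligase adaptor gene Dtl at 1.26 and the uracil glycosylase gene Ung at 0.83 log2 units (limma, adjusted p = 0.0375, 0.0307 and 0.0379). Ung was named after its value was seen. Without Erg fl/fl MPP replicate 1 the S phase list kept 1 call, Ung (median 0.25, 8 positive). Of 62 other mitosis genes 20 have a value, and 1 was called higher and 0 lower (median 0.17, 12 positive): Haspin, a histone kinase of mitotic chromosomes, at 1.7 (adjusted p = 0.0498). Cdca8, which encodes a subunit of the chromosomal passenger complex, stood at 2.08 (adjusted p = 0.0574). Without Erg fl/fl MPP replicate 1 this list had 0 called (limma; median 0.05, 11 positive). In a last list of 16 genes, headed CDK inhibitors and pocket proteins, 8 have a value, and 0 were called (median 0.22, 6 positive). These are Cdkn2b, Rb1, Rbl1, Tfdp1, Tfdp2, Lin9, Lin37 and Lin54. Most of them, the Tfdp and Lin genes, are neither CDK inhibitors nor pocket proteins. The values of this list therefore do not describe the brakes of the cycle.

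None of these lists had a called gene in either comparison of Erg genotypes, by limma. At an unadjusted p under 0.05 in MPPs, 2 other mitosis genes, 0 S phase genes and 1 gene of the last list were lower. In HSCs, 1 other mitosis gene, 1 S phase gene and 0 genes of the last list were higher. Over all genes the shares were 3.58% lower in MPPs and 2.73% higher in HSCs. In Erg -/- against Erg fl/fl MPPs the medians were -0.23 for the other mitosis genes (6 of 20 positive), -0.14 for the S phase genes (3 of 14) and -0.08 for the last list (4 of 8), beside 0.00 over all genes. Without Erg fl/fl MPP replicate 1 they were -0.08 (7 of 20), -0.02 (5 of 14) and -0.01 (4 of 8), beside -0.02 over all genes, so these medians rest on that array. In Erg +/- against Erg +/+ HSCs they were -0.08 (7 of 20), 0.09 (8 of 14) and -0.11 (4 of 8), beside 0.02 over all genes.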

How the data were processed

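RNA of sorted cells was measured on 12 arrays. Amplification started from 20 ng of RNA and 2.5 µg of cDNA was labelled, per the labels' protocols. Values were deposited on a log2 scale, and RMA and affy, with no version, are the tools in the submitters' processing notes. RMA is meant to equalise the array distributions, so each difference is read relative to most other probe sets, and it compresses the folds of dim genes. The deposited values still differed in width. The interquartile range of the probe sets ran from 2.50 to 2.64 log2 units in Erg -/- MPPs and 2.53 to 2.84 in Erg fl/fl MPPs. It ran from 2.83 to 2.87 in Erg +/- HSCs and 2.89 to 2.99 in Erg +/+ HSCs. The width thus varied with the population, and the cause was not tested. The sources used here do not say if all arrays were normalised as 1 set.

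There are 18719 probe sets. In the platform annotation 10657 carry 1 gene symbol, 523 carry several and 7539 are not listed. The probe set with the highest mean stood for its gene, which left 9984 genes. All 87 genes of the rule matched RefSeq gene IDs (GRCm38.p6), and 6 have more than 1 probe set. For the array annotation itself no build was found in the sources used here.

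All genes entered 1 limma fit (limma 3.58.1 in R 4.3.3), without a filter, that estimates each group's mean (8 residual and 4.35 prior degrees of freedom). Tests were two-sided, and Benjamini-Hochberg adjustment ran over the 9984 genes. Called means an adjusted p under 0.05. SE is limma's moderated standard error. Without overlap, or apart, means that no array of either group lay within the range of the other. The fit was tested on simulated data. Nothing in the labels names separate animals, and the p-values then reflect only how far these samples vary, and that variation may be technical. Arrays have no read depth; their number limits the precision. The genes, roles and lists were chosen with earlier results of these data known. Named genes are, for each comparison, the called ones, the 5 with the smallest p in a direction with fewer than 5 calls, the 2 with the smallest p in each role, the best-known cycle genes listed, and up to 2 genes of each list outside the rule; the text gives those that show each role.

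The alternatives tried were: only the compared arrays; array weights; robust moderation with a trend on intensity; centring arrays on their median; a second quantile normalisation; averaging a gene's probe sets; dropping genes under the 25th or the 50th percentile of mean value; adjusting p over all probe sets; the replicate number as a block; leaving out each array; and, added after seeing the data, leaving out the first replicates of Erg fl/fl MPPs and Erg +/+ HSCs, the pair with the lowest array weights.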

Additional observations from a re-analysis of the deposited data

Results flagged for a closer look

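Cdc23 stood out because its arrays moved in opposite directions, without overlap, in the MPP and HSC comparisons of Erg genotypes. The difference between the effects was -1.10 log2 units (95% interval -1.87 to -0.33) and did not pass over all genes (limma interaction term, adjusted p = 1), with values from -1.28 to -0.79 when 1 array was left out.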

How the results depend on the processing

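Of 170 alternative counts and medians over the 87 genes, 158 stayed within 1.5 times for counts or within the spread between arrays for medians (SD 0.0491), and 12 did not. Several medians lie so near 0 that 6 of 80 alternatives turned their sign, 2 of them for HSCs, where the median was 0.003 without Erg +/+ HSC replicate 1, alone or with the other array of the pair, and -0.069 to 0.003 with 1 array left out. The count of called genes between the control populations was 3. It was 2 to 4 with 1 array left out and 1, Cks2, when the first replicates of Erg fl/fl MPPs and Erg +/+ HSCs were both left out. In the other 4 comparisons it was 0 throughout. The median over the 87 genes between the control populations was 0.048 with the 50th percentile filter, 0.073 with quantile normalisation repeated, 0.024 with arrays centred on their median, and 0.072 to 0.134 with 1 array left out. Between Erg -/- MPPs and Erg +/- HSCs it was -0.003 with the 50th percentile filter. The MPP median was -0.021 with quantile normalisation repeated and -0.107 to -0.035 with 1 array left out. The median difference of effects was 0.003 with quantile normalisation repeated, -0.025 with centring, 0.011 without the pair of arrays, and -0.100 to 0.005 with 1 array left out. The cause of these shifts was not tested. Plk1 between the control populations also missed the threshold with p adjusted over all probe sets (adjusted p = 0.126) and without the pair of arrays (0.0955). Cks2 was called under every alternative run. Cdc14b was left out by the 50th percentile filter. The difference of effects of Cdk7, which was not called, was 0.62 and turned to -0.288 with the mean of its probe sets. The replicate numbers do not pair the samples: deviations of same-numbered arrays from their group means correlated at -0.0852 to 0.1041. With the replicate block, 4 genes were called between the control populations, Cks2, Cdc14b, Plk1 and Cenpp, and 0 in the other comparisons.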
